A study of Danio rerio with 10 samples.

Results

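The genes examined here encode factors for the trafficking of lipid-modified proteins into cilia. Their levels were measured in whole zebrafish embryos, WT or mutant for *rpgrip1l*, which encodes a protein of the ciliary transition zone. The genes were 2 copies of *arl3* (ENSDARG00000056794 and ENSDARG00000071409), *arl13a* (ENSDARG00000052575) and *unc119b* (ENSDARG00000009629). These 4 genes, of 32057 counted, were listed by their identifiers, with earlier results of these data at 2 dpf known. All 4 passed the filter on low counts at both ages, which asked for enough counts in 2 libraries of any group. *arl13a* passed at 2 dpf through the mutants, and *arl3* ENSDARG00000056794 at 5 dpf through WT, the groups where each was higher. Passing is therefore no support for those differences. RNA was sequenced from pools of 30 to 35 whole embryos, in 10 libraries that form 5 groups of 2. At 2 days post fertilization (dpf) the groups were *rpgrip1l*-/- embryos with a curled-down tail (CDT), *rpgrip1l*-/- embryos with a normal-looking tail, and wild type (WT). At 5 dpf they were *rpgrip1l*-/- embryos, whose tails the labels do not describe, and WT. The mutants came from crosses between homozygous fish and WT from crosses of the AB strain, so parents and genotype cannot be told apart, and every cell of a mutant embryo carried the mutation, which CRISPR/Cas9 had put into AB fish.

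ARL3 is a small GTPase that, when loaded with GTP, enters the cilium and releases lipid-modified cargo from its carriers. UNC119 proteins carry myristoylated cargo such as transducin alpha subunits, and PDE6D carries prenylated cargo such as INPP5E. RP2 returns ARL3 to the GDP-bound state, and ARL2, a related GTPase, also acts on the carriers. Loss of this route is known for disturbing photoreceptors, whose outer segment is a modified cilium. The table of names used here gives both *arl3* identifiers the same symbol and does not tell *arl3a* from *arl3b*, so the copies are named by their identifiers.

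The libraries held 9101264 to 17536165 counts on genes. Defining genes of muscle, skin, lens, neurons, pronephros and pigment cells were found in every library. Those of exocrine pancreas, liver and red blood cells were too, but were lower in mutants than WT at 2 dpf. In CPM (defined below), *prss1* of pancreas had 21.6 and 21.7 in WT and 0.65 to 1.78 in mutants. *fabp10a* of liver had 5.88 and 7.61 against 0.52 to 1.46, and *hbae1.1* of red blood cells 33.9 and 30.3 against 10.1 to 14.2. Lower in the mutants at 2 dpf too was *actc1b* of muscle, with 4190 to 5005 CPM against 7082 and 7014 in WT. So were *krt4* of skin (29609 to 32967 against 49849 and 53978) and *cdh17* of pronephros (22.9 to 32.8 against 36.4 and 40.8). *krt5* of skin overlapped. *elavl3* of neurons and *cryaa* and *cryba1b* of lens were instead higher in mutants. Of the pigment cell genes, *pmela* was higher and *dct* lower. At 5 dpf *prss1* and *ela2* of pancreas, *tfa* of liver and *actc1b* were lower in mutants than WT. *elavl3*, *krt5*, *cryaa*, *hbae1.1* and *dct* were higher, and the others overlapped. *prss1* had 1414 and 669 CPM in mutants and 2508 and 1920 in WT at 5 dpf. *fabp10a* had 436 and 256 against 409 and 384, so the mutant pools at 5 dpf also differed from each other. The part of these tissues in other differences was not tested. The targeted gene *rpgrip1l* had 11 to 36 counts per library and did not separate the genotypes, and the study describes its mutant transcript as not degraded, so this level does not check the labels. The WT libraries at 2 dpf stood apart. Their highest correlation with any library of another group was 0.964 and 0.961, whereas each CDT or normal-tail library reached 0.9897 or more with a library of the other tail class. Both comparisons of mutants with WT at 2 dpf share these same WT pools and rest on them. The labels do not say that the pools of a group came from separate clutches, so p-values measure only the spread between these pools.

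Each of the genes kept its own order over the 5 groups. Levels are given as CPM, the counts of a gene relative to the scaled total counts of its library, and are not corrected for transcript length, so they are compared between groups and not between genes. *arl3* ENSDARG00000071409 was highest in WT at 2 dpf and lowest in mutants at 5 dpf. *arl13a* was lowest in WT at 2 dpf and highest in mutants at 5 dpf. *unc119b* was split by age, with all 6 libraries at 2 dpf above all 4 at 5 dpf.

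**Figure D1:**
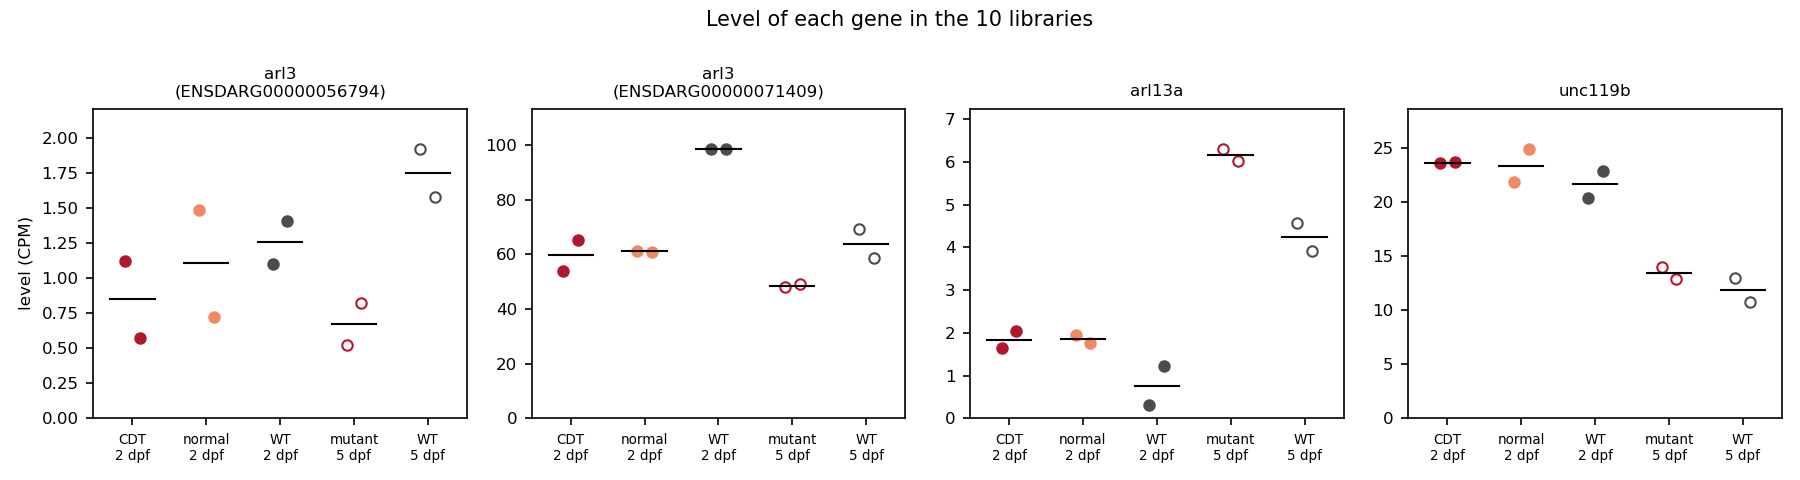
Level of each gene in CPM, 1 panel per gene with its own axis from 0; points are libraries, short lines are group means, filled points are 2 dpf and open points 5 dpf. The 2 WT libraries at 2 dpf, at 98.5 and 98.5 CPM, are above all others for *arl3* ENSDARG00000071409, and the 4 libraries at 5 dpf, at 3.91 to 6.31 CPM, are above all others for *arl13a*.

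The abundantly counted copy of *arl3*, ENSDARG00000071409, had 98.5 and 98.5 CPM in the WT libraries at 2 dpf. The CDT libraries had 54.0 and 65.2 CPM, and the normal-tail libraries had 61.1 and 60.9 CPM. At 5 dpf this copy had 69.3 and 58.5 CPM in WT and 47.9 and 49.2 CPM in mutants. The WT libraries at 2 dpf were thus above, and the mutant libraries at 5 dpf below, every library of the other groups. The 3 groups between them (WT at 5 dpf, normal tail and CDT at 2 dpf, with means of 63.9, 61.0 and 59.6 CPM) did not differ beyond their spread. 

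The other copy, ENSDARG00000056794, was counted near the lower limit, with 7 to 29 counts per library. WT had 29 and 25 counts at 5 dpf and 14 and 15 at 2 dpf. Mutants had 7 and 11 counts at 5 dpf, 19 and 9 with CDT, and 16 and 11 with a normal tail. Its mean level was 1.75 CPM ± 0.242 (SD, n = 2) in WT at 5 dpf and 0.672 ± 0.208 in mutants at 5 dpf, and the neighbours in between, at 0.847, 1.104 and 1.25 CPM, overlapped. It gave 2.698% (exact binomial 95% confidence interval 1.81 to 3.85) and 2.63% (1.71 to 3.85) of the counts on both copies in WT at 5 dpf. In the mutants at 5 dpf it gave 1.09% (0.437 to 2.22) and 1.64% (0.821 to 2.91), and at 2 dpf 0.870% to 2.37%. These intervals cover counting error only, and shares of counts are not shares of transcripts, since the lengths of the copies were not used. Reads shared by the copies could have been lost or split by the counting.

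*arl13a*, which encodes a GTPase of the Arl family, was a gene of low counts at 2 dpf. WT had 4 and 13 counts there (0.314 and 1.22 CPM), CDT 28 and 32 (1.65 and 2.03 CPM) and normal tail 21 and 27 (1.95 and 1.77 CPM). At 5 dpf it had 69 and 62 counts in WT (4.57 and 3.91 CPM) and 84 and 81 in mutants (6.31 and 6.03 CPM). The CDT and normal-tail libraries overlapped, and each other step in the order from WT at 2 dpf to mutants at 5 dpf was without overlap. The WT libraries at 2 dpf differed from each other more than those of any other group in proportion to their level.

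*unc119b*, which encodes a carrier of myristoylated proteins, had 20.4 and 22.9 CPM in WT at 2 dpf, 23.6 and 23.7 in CDT and 21.8 and 24.9 with a normal tail. At 5 dpf it had 13.0 and 10.7 CPM in WT and 14.0 and 12.9 in mutants. The CDT libraries were just above the WT libraries at 2 dpf. The normal-tail libraries overlapped with both, and the genotypes overlapped at 5 dpf.

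The comparison of mutants with CDT and mutants with a normal tail asks whether these genes separate siblings that do and do not show the body axis defect. None of the 4 genes was called, a call being an adjusted p under 0.05 in edgeR's quasi-likelihood fit (Benjamini-Hochberg). Of all genes tested, 0.952% were called, 0.657% higher and 0.295% lower with CDT. None had an unadjusted p under 0.05 either, and DESeq2 called 0. The tail classes overlapped for all 4. The log2 difference was −0.03 for *arl3* ENSDARG00000071409 (95% confidence interval −0.22 to 0.16) and 0.01 for *unc119b* (−0.22 to 0.25). For the genes of low counts the intervals were wide, from −0.78 to 0.77 for *arl13a* and from −1.31 to 0.70 for *arl3* ENSDARG00000056794.

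Against WT at 2 dpf, *arl3* ENSDARG00000071409 was lower and *arl13a* was higher in both tail classes, while the other copy of *arl3* and *unc119b* were not called. In each comparison 2 of the 4 genes were thus called, 1 higher and 1 lower. Of all genes tested, 40.5% were called between CDT and WT (20% higher, 20.4% lower) and 39.6% between normal tail and WT (19.2% higher, 20.4% lower), so the share of the 4 genes is near that of all genes. *arl3* ENSDARG00000071409 was 1.57-fold lower with CDT (log2 fold change −0.65, SE 0.092, adjusted p = 1.32e-07) and 1.53-fold lower with a normal tail (−0.62, SE 0.093, adjusted p = 4.86e-07). It was lower in all 4 mutant libraries and was called whichever library was left out, with log2 fold changes from −0.78 to −0.52 for CDT and from −0.62 to −0.61 for normal tail.

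The rise of *arl13a* at 2 dpf was larger in size and less certain. It was 2.62-fold higher with CDT (log2 fold change 1.39, SE 0.467, adjusted p = 0.0143) and 2.63-fold higher with a normal tail (1.40, SE 0.480, adjusted p = 0.0173). DESeq2 gave 1.36 and 1.38 with adjusted p = 0.0871 and 0.0871, so that the call was lost in both. The 4 counts of WT replicate 1 decided its size. Without that library the log2 fold change was 0.67 for CDT (adjusted p = 0.331) and 0.67 for normal tail (adjusted p = 0.343), and without WT replicate 2 it was 2.59 and 2.60. The call also ended without CDT replicate 2 (adjusted p = 0.0907) in the one comparison, and without normal-tail replicate 1 (0.0701) or 2 (0.0603) in the other.

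The copy of *arl3* with few counts and *unc119b* were the genes not called against WT at 2 dpf. The log2 fold change of *unc119b* was 0.21 for CDT (95% confidence interval −0.03 to 0.45) and 0.19 for normal tail (−0.05 to 0.44), and that of *arl3* ENSDARG00000056794 was −0.46 (−1.45 to 0.53) and −0.16 (−1.16 to 0.84). Summed levels of 12 identifiers of motile ciliated cells were 25.9 to 26.5 CPM in the 4 mutant libraries and 28.6 and 34.4 CPM in WT, with 11 or 12 of the 12 above 3 counts. Summed levels of 13 photoreceptor identifiers were 72.0 to 95.1 CPM in the mutants and 74.3 and 82.9 CPM in WT, with 9 to 11 of the 13 above 3 counts and 1 at 0 in both libraries of each group, *opn1lw1* or, for CDT, an identifier of *rho*. The sum hides unequal changes, since of the 11 photoreceptor identifiers tested 5 were lower and 2 higher with CDT (median log2 fold change −0.58), and 4 were lower and 2 higher with a normal tail (−0.69). The 2 that were higher were, in both classes, the identifiers of *crx*, which encodes a transcription factor of photoreceptors. In whole embryos, fewer cells of a type and less RNA per cell cannot be told apart, and the part of these cells in the levels of *arl3* and *arl13a* was not tested.

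**Figure D2:**
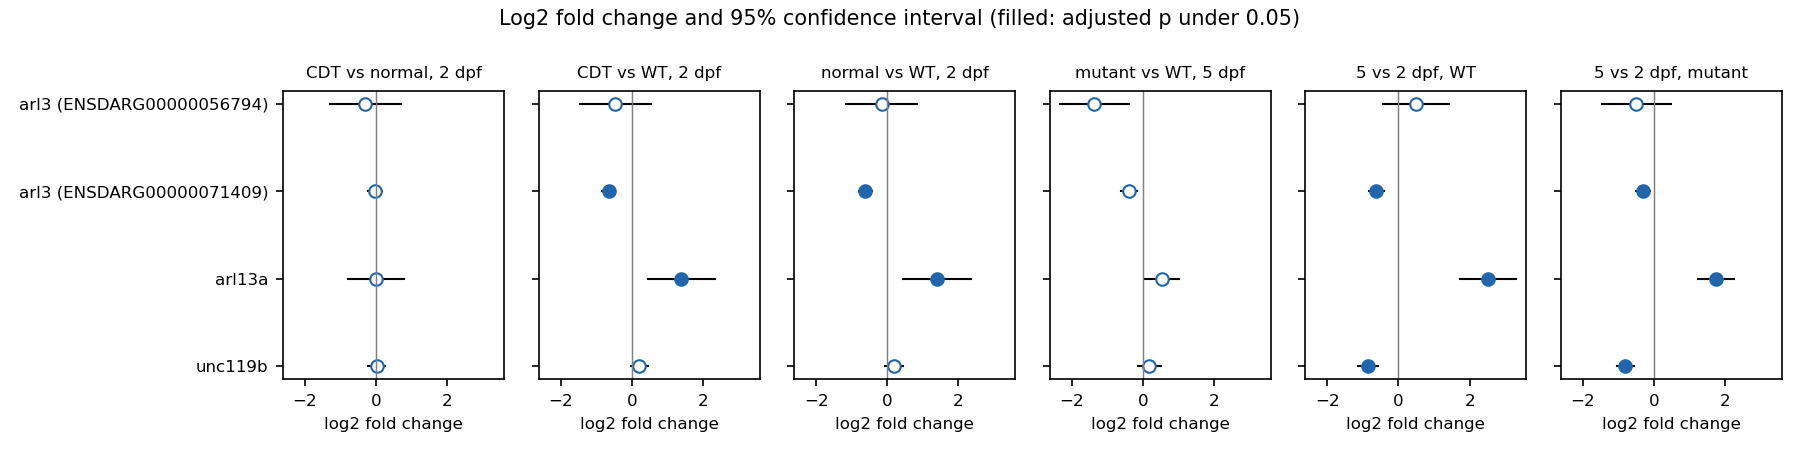
Log2 fold change of each gene (points) with its 95% confidence interval (lines) in 6 comparisons, named above the panels; filled points passed an adjusted p of 0.05. No gene was called between the tail classes or at 5 dpf, *arl3* ENSDARG00000071409 and *arl13a* were called against WT at 2 dpf, and 3 genes were called with age in WT and in mutants.

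At 5 dpf none of the 4 genes was called between mutants and WT by edgeR, where 3.84% of the genes tested were called (1.28% higher, 2.56% lower). By unadjusted p under 0.05 the count was 3 with edgeR and 2 with DESeq2, which also called 0. Those 3 were both copies of *arl3*, with lower levels in the mutants, and *arl13a*, with higher levels. The genotypes did not overlap for any of them, a weak criterion with 2 libraries against 2. The shares of all genes under that unadjusted threshold or without overlap were not counted, so these 3 are not read as a mutant effect. *arl3* ENSDARG00000071409 had a log2 fold change of −0.40 (95% confidence interval −0.63 to −0.16, adjusted p = 0.0577), and *arl3* ENSDARG00000056794 one of −1.37 (−2.33 to −0.40, adjusted p = 0.1197). *arl13a* had a log2 fold change of 0.54 (0.07 to 1.01, adjusted p = 0.212). That of *unc119b* was 0.18 (−0.15 to 0.51).

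The value of *arl3* ENSDARG00000071409 at 5 dpf lay close to the threshold and crossed it with some settings. It was called when all 10 libraries were fitted together (−0.40, adjusted p = 0.0207) and without WT replicate 2 (−0.51, adjusted p = 0.0301). It was not called with DESeq2 (−0.39, adjusted p = 0.164), upper quartile scaling (−0.38, adjusted p = 0.0667) or no filter (−0.40, adjusted p = 0.0719). Nor was it called without WT replicate 1 (−0.27), mutant replicate 1 (−0.38) or mutant replicate 2 (−0.41). With the counts of both copies summed, an alternative chosen after the data were seen, *arl3* had 48.4 and 50.0 CPM in mutants and 71.2 and 60.1 CPM in WT, and the fold change was −0.42 (SE 0.109, adjusted p = 0.0474). The photoreceptor identifiers summed to 3014 and 3086 CPM in mutants and to 1997 and 2474 CPM in WT, with all 13 above 3 counts in each library. The identifiers of motile ciliated cells summed to 24.9 and 26.8 CPM in mutants and to 20.6 and 22.5 CPM in WT, with *dnah9* at 0 in both mutant libraries. Their part in the levels of *arl3* and *arl13a* was not tested.

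**Figure D3:**
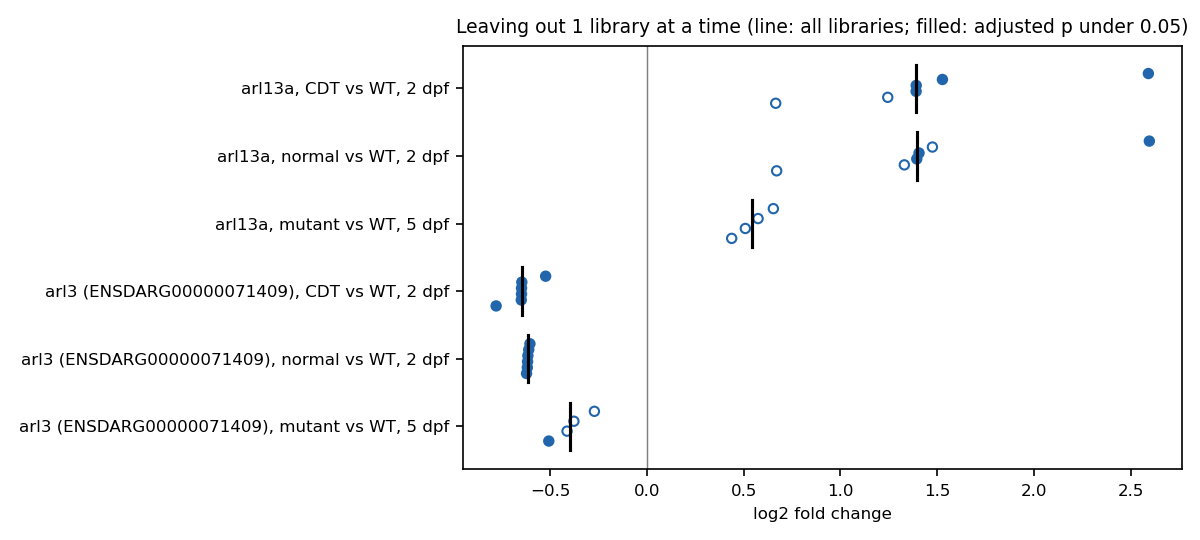
Log2 fold change of *arl13a* and of *arl3* ENSDARG00000071409 in mutants against WT when 1 library at a time was left out (points, filled where the adjusted p was under 0.05); vertical lines are values from all libraries. *arl13a* spread from 0.67 to 2.59 for CDT at 2 dpf, and *arl3* ENSDARG00000071409 from −0.78 to −0.52 for CDT, from −0.62 to −0.61 for normal tail and from −0.51 to −0.27 at 5 dpf.

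From 2 to 5 dpf, 3 of the 4 genes changed, and each in the same direction in WT and in mutants. *arl13a* rose, while *arl3* ENSDARG00000071409 and *unc119b* fell relative to all other RNA of the embryo. As 60.8% of the genes tested were called with age in WT (31.3% higher, 29.5% lower) and 62.7% in mutants (33.1% higher, 29.6% lower), a count of 3 of 4 is of the order seen over all genes. In WT *arl13a* rose 5.73-fold (log2 fold change 2.52, SE 0.388, adjusted p = 2.71e-06). In mutants, with 5 dpf set against the mean of both tail classes, it rose 3.33-fold (1.74, SE 0.250, adjusted p = 9.54e-07). The lower level in WT at 2 dpf, where replicate 1 held 4 counts, is part of the former value. The log2 fold change in WT was 1.79 without that library and 3.72 without WT replicate 2 at 2 dpf.

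*unc119b* fell 1.82-fold in WT (log2 fold change −0.87, SE 0.136, adjusted p = 3.65e-06) and 1.76-fold in mutants (−0.81, SE 0.118, adjusted p = 1.10e-06). *arl3* ENSDARG00000071409 fell 1.54-fold in WT (−0.63, SE 0.102, adjusted p = 6.31e-06) and 1.24-fold in mutants (−0.31, SE 0.092, adjusted p = 0.00443). All of these calls were kept by DESeq2 and in all 10 fits with 1 library left out. The other copy of *arl3* was not called, with 0.49 (95% confidence interval −0.44 to 1.42) in WT and −0.49 (−1.47 to 0.49) in mutants. Over the same time the photoreceptor identifiers rose from 72.0 to 95.1 CPM at 2 dpf to 1997 CPM or more at 5 dpf. Their part in the changes of the 4 genes was not tested.

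Whether the genotype effect differed between the ages was tested as an interaction, the effect at 5 dpf minus that at 2 dpf with the tail classes averaged. None of the 4 genes was called by edgeR, where 23.4% of the genes tested were called (14.7% higher, 8.74% lower). By edgeR 1 had an unadjusted p under 0.05, and DESeq2 called 0 with 0 under that unadjusted threshold. The share of all genes under that threshold was not counted, so this gene is not read as changed between the ages. For this gene, *arl3* ENSDARG00000071409, the value was 0.31 on the log2 scale (95% confidence interval 0.03 to 0.59, adjusted p = 0.100). A positive value here means a smaller deficit of the mutants at 5 dpf. With 1 library left out it ranged from 0.19 to 0.44, with 0.44 without WT replicate 1 at 5 dpf and 0.38 without CDT replicate 2. For *arl13a* the value was −0.78 (−1.79 to 0.22, adjusted p = 0.267), but −0.05 without WT replicate 1 at 2 dpf and −1.98, called with an adjusted p of 0.0401, without WT replicate 2. The intervals were −2.33 to 0.37 for *arl3* ENSDARG00000056794 and −0.31 to 0.43 for *unc119b*. With upper quartile scaling, 48.5% of all called genes were higher in this interaction, against 62.6% with the main scaling.

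Other genes of the same route were described from lists of the Arl3 cycle, carriers, cargo, lipid attachment and ciliary entry. A further list held other Arl GTPases, most of which act outside cilia. Together the lists held 37 identifiers, of which 36 were tested. Between the tail classes, none of the 36 was called by edgeR, 1 had an unadjusted p under 0.05, and DESeq2 called 0. Between CDT and WT, 2 were higher and 10 lower, with a median log2 fold change of −0.19 against 0.03 over all genes tested, of which 20% were called higher and 20.4% lower. Between normal tail and WT, 1 was higher and 13 lower, with a median of −0.22 against 0.01, and 19.2% and 20.4% of all genes were called. Without the other Arl family, 19 identifiers were tested. Of these, 2 were higher and 4 lower with CDT (median −0.17), and 1 was higher and 5 lower with a normal tail (−0.11). With DESeq2 fewer of the 36 were called against WT at 2 dpf, 9 instead of 12 for CDT and 10 instead of 14 for normal tail. At 5 dpf 1 of the 36 was higher and 0 lower, with a median of 0.05 against −0.00. The 4 genes themselves had medians of −0.13, 0.02 and −0.11 in these comparisons with WT.

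In the Arl3 cycle, *arl2*, a GTPase that binds the same carriers, was lower in mutants at 2 dpf, with 25.9 to 32.1 CPM in the 4 mutant libraries and 35.5 and 40.3 CPM in the WT pair. The change on the log2 scale was −0.32 for CDT (adjusted p = 0.0198) and −0.30 for normal tail (0.0315), and both calls ended under upper quartile scaling (−0.26, adjusted p = 0.0515, and −0.25, adjusted p = 0.0746), in DESeq2 (0.0743 and 0.110) and without WT replicate 2 (−0.23, adjusted p = 0.241, and −0.21, adjusted p = 0.290). They also ended without CDT replicate 1 (−0.28) and without normal-tail replicate 1 (−0.17), each for its own class. *arl2bp*, which encodes a partner of Arl2 and Arl3, was lower with a normal tail alone among the tail classes (−0.46, adjusted p = 0.0181, 0.0970 with DESeq2, 0.268 without normal-tail replicate 2 and 0.187 without WT replicate 2), and the classes were not called apart (0.22, adjusted p = 0.697). *rp2*, encoding the protein that switches Arl3 off, was not called in any comparison and ranged from 18.0 to 23.6 CPM over the 10 libraries. With age *arl2* fell by 0.88 in WT and by 0.44 in mutants on the log2 scale, and *arl2bp* fell by 1.18 in WT and by 0.56 in mutants, the last of which was not called without mutant replicate 2 at 5 dpf (−0.40, adjusted p = 0.0847).

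Of the carriers, *unc119a2* rose with age where *unc119b* fell. It had 22.6 and 27.7 CPM in WT at 2 dpf and 31.3 and 31.0 at 5 dpf (log2 fold change 0.31, adjusted p = 0.0222, and 0.0548 with DESeq2). In mutants it rose from 24.8 to 31.1 CPM at 2 dpf to 37.8 and 40.6 at 5 dpf (0.53, adjusted p = 2.40e-05). It was higher with CDT than in WT (0.29, adjusted p = 0.0427), a call lost with DESeq2 (0.195), with all 10 libraries in 1 fit (0.155), without CDT replicate 2 (0.246), without WT replicate 1 (0.481) and, narrowly, without either normal-tail library (0.0559 and 0.0559). The rise in WT was not called without WT replicate 1 at 2 dpf (0.17, adjusted p = 0.335) or without WT replicate 1 or 2 at 5 dpf (0.0640 and 0.0564). *pde6d* rose with age in mutants (0.41, adjusted p = 0.00304) and was not called in WT (0.06, adjusted p = 0.708), and the difference between those changes was not called either (0.34, adjusted p = 0.169). The identifier with the symbol *unc119* had 1.84 to 4.16 CPM and was called in no comparison.

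Among the cargo, the cone transducin gene *gnat2* had 4.94 and 5.35 CPM in WT at 2 dpf and 1.40 to 1.65 CPM in the 4 mutant libraries (log2 fold change −1.67, adjusted p = 1.25e-05 for CDT, and −1.73, adjusted p = 1.53e-05 for normal tail). At 5 dpf it had 488 and 539 CPM in WT and 561 and 547 in mutants, and was not called (0.11, adjusted p = 0.643). Its interaction, which uses the same WT libraries at 2 dpf, was called (1.88, adjusted p = 1.95e-07). The rod transducin gene *gnat1* had 73.1 and 86.1 CPM in WT and 119.5 and 119.3 CPM in mutants at 5 dpf (0.59, SE 0.109, adjusted p = 0.00562). Both transducins are genes of photoreceptors. The tested photoreceptor identifiers had medians below 0 against WT at 2 dpf, −0.58 with CDT and −0.69 with a normal tail, and 0.36 at 5 dpf, when 4 of 13 were higher and 1 lower, and their part in the levels of the transducins was not tested. *inpp5e*, encoding the ciliary phosphatase that Pde6d carries, was called in no comparison and ranged from 10.2 to 13.3 CPM. *tulp3*, which brings membrane proteins to the cilium, was called with age in WT and not in mutants (0.51, adjusted p = 0.0111, but 0.150 without WT replicate 2 at 5 dpf and 0.108 without WT replicate 2 at 2 dpf), and its interaction was not called (−0.29, adjusted p = 0.382).

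Some of the other Arl GTPases, most of which act outside cilia, were also lower than WT at 2 dpf. Of 17 tested, 6 were lower with CDT and 8 with a normal tail, where 20.4% of all genes tested were lower in each, and 0 were higher in either. The median log2 fold change was −0.22 with CDT and −0.30 with a normal tail. *arl1*, which recruits tethers to the Golgi, had 73.1 and 78.0 CPM in WT and 44.3 to 47.7 CPM in the mutants (log2 fold change −0.61, adjusted p = 5.06e-07, and −0.68, adjusted p = 7.64e-08). *arl5a* had 40.4 and 37.8 CPM in WT and 21.8 to 26.0 CPM in the mutants (−0.68, adjusted p = 2.06e-06, and −0.59, adjusted p = 3.19e-05). *arl4a* had 34.9 and 33.3 CPM in WT and 20.5 to 22.8 CPM in the mutants (−0.51, adjusted p = 0.000227, and −0.63, adjusted p = 1.73e-05). At 5 dpf none of the 17 was called by edgeR, where 3.84% of all genes were, and *arl1*, *arl5a* and *arl4a* had log2 fold changes of 0.00, 0.03 and 0.06. These 3 were named for their small adjusted p against WT at 2 dpf, so their smaller values at 5 dpf are a description with no test. In the interaction 6 of the 17 were higher and 0 lower, against 14.7% and 8.74% of all genes, and it uses the same WT libraries at 2 dpf.

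The genes whose levels followed those of the 4 most closely were found over the 10 libraries, among 12880 genes of at least 5 CPM, for the members at or above that level. The libraries share age and genotype, so these correlations describe patterns and carry no p. *arl3* ENSDARG00000071409 was most like *iscu* (r = 0.988), *tnni1c* (0.982) and *si:dkey-230e6.3* (0.982). Like it, *iscu*, encoding an iron-sulfur cluster scaffold, had its highest mean in WT at 2 dpf, 101.1 CPM, and its lowest in mutants at 5 dpf, 63.0 CPM. *unc119b* was most like *usf2* (0.989), *ezh2* (0.988) and *mlec* (0.988). *ezh2*, encoding the histone H3 methyltransferase of Polycomb complexes, had means of 25.9 to 30.3 CPM at 2 dpf and 13.1 to 14.7 CPM at 5 dpf.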

How the data were processed

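Libraries of polyadenylated RNA were read by the authors as 150 bp pairs. TrimGalore 0.4.4 was used for trimming, STAR 2.7.3a for alignment to GRCz11 and HTSeq-count 0.12.3, at its default, for the raw counts per gene that were deposited. Reads on no single gene (55.7% to 57.5% per library) entered neither library sizes nor tests. Positions on GRCz11 and sequences were not used here.

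Tests used edgeR 4.0.16 in R 4.3.3, with quasi-likelihood fits on TMM-scaled counts, a filter on low counts (filterByExpr by group) and Benjamini-Hochberg adjustment over all genes tested. The 6 libraries at 2 dpf (19636 genes, 3 residual degrees of freedom) and the 4 at 5 dpf (20071 genes, 2) were fitted separately, and changes with age and the interaction in 1 fit of all 10 (21016 genes, 5). The fits were tested on simulated data. Alternatives were DESeq2 1.42.0, upper quartile scaling, no filter, a replicate block, other sets of libraries and each library left out, where a lone library was assumed to vary like the other groups.

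The members and lists were chosen with earlier results of these data known. Named are the 4 genes, *rp2*, *arl2*, *arl2bp*, *pde6d*, the Unc119 genes, *inpp5e* and *tulp3*, up to 3 other called list genes per comparison, and the 3 most similar genes (Pearson r of log2(CPM + 0.5), at least 5 CPM) per member. Symbols paired 28988 of 32057 identifiers. The listed *unc119a*, *cys1*, *rab28*, *nmt1b*, *rce1a*, *ift122*, *arl4ca*, *arl8bb* and *arl15b* had no match and were not analysed here, and *rce1b* did not pass the filter. Some further genes of the route are not reported here.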

Additional observations from a re-analysis of the deposited data

How the results depend on the processing

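With 2 libraries per group, low counts limit *arl13a* at 2 dpf and *arl3* ENSDARG00000056794 throughout. For the 4 genes, the calls with age held in all alternatives. With DESeq2, 1 of the 4 genes was called for CDT and 1 for normal tail against WT at 2 dpf. Of the same 19636 genes, it called 5450 for CDT and 5353 for normal tail. It called 418 instead of 771 genes at 5 dpf and 83 instead of 187 between the tail classes. Fitting all 10 libraries together called 1 of the 4 genes and 1231 genes in all at 5 dpf and 81 genes between the tail classes, and put 39.3% instead of 49.5% of the genes called between CDT and WT on the higher side. Replicate numbers did not pair the samples (correlations of deviations −0.17 to 0.055 between groups); with the replicate block, 1 of the 4 genes (*arl3* ENSDARG00000071409, −0.39, adjusted p = 0.0269) and 1212 genes were called at 5 dpf and 298 between the tail classes, where *arl13a* turned to 0.0090. Under upper quartile scaling the interaction turned to −0.042 for *unc119b*. The causes were not tested.

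Leaving out 1 library gave 63 (without normal-tail replicate 2) to 226 genes called between the tail classes, 425 (without WT replicate 1) to 1149 at 5 dpf, 1 to 2 of the 4 genes for CDT and 1 to 2 for normal tail against WT, and 0 to 1 at 5 dpf and in the interaction. These counts of the 4 genes are not read as a result about them. Log2 fold changes changed sign between the tail classes for *arl3* ENSDARG00000056794 (−0.88 to 0.25), *arl3* ENSDARG00000071409 (−0.17 to 0.093), *arl13a* (−0.16 to 0.13) and *unc119b* (−0.068 to 0.12). They also did so for *arl3* ENSDARG00000056794 with a normal tail (−0.71 to 0.33), and in the interaction for *unc119b* (−0.077 to 0.20).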

Other observations

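Further relatives of these genes, picked after their values were seen, rose with age. *arl3l1* (ENSDARG00000111106), an *arl3*-like gene, had 2.51 to 4.64 CPM in the 6 libraries at 2 dpf and 23.1 to 26.1 CPM in the 4 at 5 dpf. The log2 fold change was 2.89 in WT (SE 0.191, adjusted p = 3.18e-13) and 2.76 in mutants (SE 0.144, adjusted p = 1.39e-15). It was not called between mutants and WT at 5 dpf (0.08, adjusted p = 0.793). *arl3l2* (ENSDARG00000015404) had 9 and 10 counts in WT at 2 dpf, 5 and 4 with CDT, and 2 and 0 with a normal tail. At 5 dpf it had 265 and 281 counts in WT and 222 and 220 in mutants, a log2 fold change with age of 4.42 in WT (SE 0.264, adjusted p = 3.21e-14). No fold is given for the mutants, whose normal-tail libraries were under 3 counts, and *arl3l2* did not pass the filter at 2 dpf. *unc119c* (ENSDARG00000004459) had 6 to 19 counts at 2 dpf and 32 to 46 at 5 dpf, with log2 fold changes of 1.99 in WT (SE 0.458, adjusted p = 0.000474) and 2.37 in mutants (SE 0.344, adjusted p = 1.07e-06). So while the *arl3* copy with most counts and *unc119b* fell from 2 to 5 dpf, *arl3l1* and *unc119c* rose in both genotypes. The photoreceptor identifiers rose over the same time, and their part in these levels was not tested.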
